A study of Arabidopsis thaliana with 51 samples.

Results

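The germinating-seed probes are the array probes that were far higher on the germinating seed arrays than in any other organ of an Arabidopsis thaliana (thale cress) series. A probe was chosen where its mean over the germinating seed arrays lay at least 2 log2 units, a 4-fold difference, above the highest mean of the other organ groups. It also needed at least 2 germinating seed values and a mean in at least 14 of the 16 other groups, and 1 gene was left out beforehand. Of 27600 probes, 23075 had enough values, and 240 of these, 1.04%, met the rule. Of the 240, 7 name a single gene through what was taken as a cDNA or EST. They encode a crotonase-family enzyme (AT4G13360), the transcription factor ORA47, a coatomer subunit (AT3G09800), the RNA polymerase II subunit NRPB7, a pyruvate dehydrogenase subunit (AT2G34590), the SNARE protein YKT61 and a plastid translation factor (AT4G30690).

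The series holds 51 two-colour arrays, of which 45 set RNA of 1 organ against RNA of cultured cells and 6 set an organ in the light directly against the same organ in the dark. Germinating seed had 3 arrays, as did the vegetative organs stem, rosette leaf and cauline leaf, and also petal, stamen, dark cotyledon, the 3DPP silique and the 8DPP silique. Dark-grown root and hypocotyl had 2 each, as did cotyledon, root and hypocotyl from light, the sepal and the 1DBP pistil, and the 1DPP pistil had 4. The direct arrays numbered 2 each for cotyledon, root and hypocotyl. All groups against cultured cells share that reference. The line of those cells, and the plants' strain, age and hours of imbibition, are not stated in the labels, and DBP and DPP are not spelled out there. The labels do not say that arrays of a group hold RNA of separate plants, so p-values measure the spread between arrays, which may be technical.

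A germinating seed takes up water, restarts transcription and translation from stored and new RNA, breaks down its oil and protein reserves and then pushes out the root. Messages for storage proteins and late embryogenesis proteins made during ripening are known to persist in the dry seed and to fade as the seedling grows. Genes of gene expression, protein traffic and energy metabolism are known to be switched on early in germination. The ratios compare whole organs, so fewer cells of a type and less RNA per cell cannot be told apart.

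Values are given as log2 of the organ over cultured cells after subtracting each array's median, so 0 is the median ratio of the array. This direction is likely and not known. It rests on the photosystem genes LHB1B2, with a mean of 10.10 in rosette leaf, and PSAE-1, with 9.59 in light cotyledon, groups with the organ in opposite channels. The light root arrays, also of opposite channels, correlated at 0.75 over 25305 probes. The germinating seed RNA was in channel 2 on all 3 arrays, as the organ was on every array of 12 of the 16 other groups. The germinating seed arrays held between 22773 and 22928 values and correlated with each other at 0.85 to 0.87.

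The germinating seed arrays stood apart from the others in a respect that touches every result. Along the rows of the deposited tables, cut into 18 consecutive blocks of 1536, the block medians of all probes spanned 2.02 to 2.39 log2 units on the 3 germinating seed arrays. On the other 48 arrays they spanned 0.17 to 1.19, with a median span of 0.48. The medians of the germinating seed arrays were high in the first 6 blocks, reaching 1.28 in the sixth, and fell to between -1.18 and -1.11 in the twelfth. Whether the row order follows position on the array is not stated in the labels. The control gene TUA1, an alpha-tubulin spotted 17 times, also scattered most on these arrays, with a standard deviation (SD) over its spots of 1.96 to 2.0 on the germinating seed arrays and 0.09 to 1.25 on the other 48. For the other control genes, AT2G17190 and AT5G46430, the SDs were 0.47 to 1.36 and 0.42 to 1.42 on the germinating seed arrays and overlapped with those of the other arrays, which reached 1.15 and 1.13.

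The germinating-seed probes also lay unevenly along the rows. The first 6 blocks, where these medians were high, held 27, 46, 31, 15, 10 and 47 of them in order. The first 10 blocks held 221 of them, 92.1%, against 53.4% of all eligible probes and 60.6% of the 264 probes that the same rule picks for stamen. The second and sixth blocks alone held 93, or 38.8%, against 11.1% of eligible probes. Blocks 8 to 10, with germinating seed medians from -0.45 to 0.13, held 10, 9 and 11 probes. Block 16, with medians of 0.42, 0.22 and -0.07, held 5. When each array was instead centred within every 1536, 384 or 192 table rows, the rule picked 139, 148 and 132 probes, of which 108, 108 and 94 were among the 240. A core of 72 probes met the rule under all 3 of these row centrings, and 56 of these lay in the first 10 blocks. Of the 240 probes, 102 met it under none. After 384-row centring the rule picked 148 probes for germinating seed, 277 for stamen and fewer for every other group. The same arrays chose the 240 probes, so this is a description and nothing is read from it. What part the row drift has in the choice of any single probe was not tested.

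**Figure D1:**
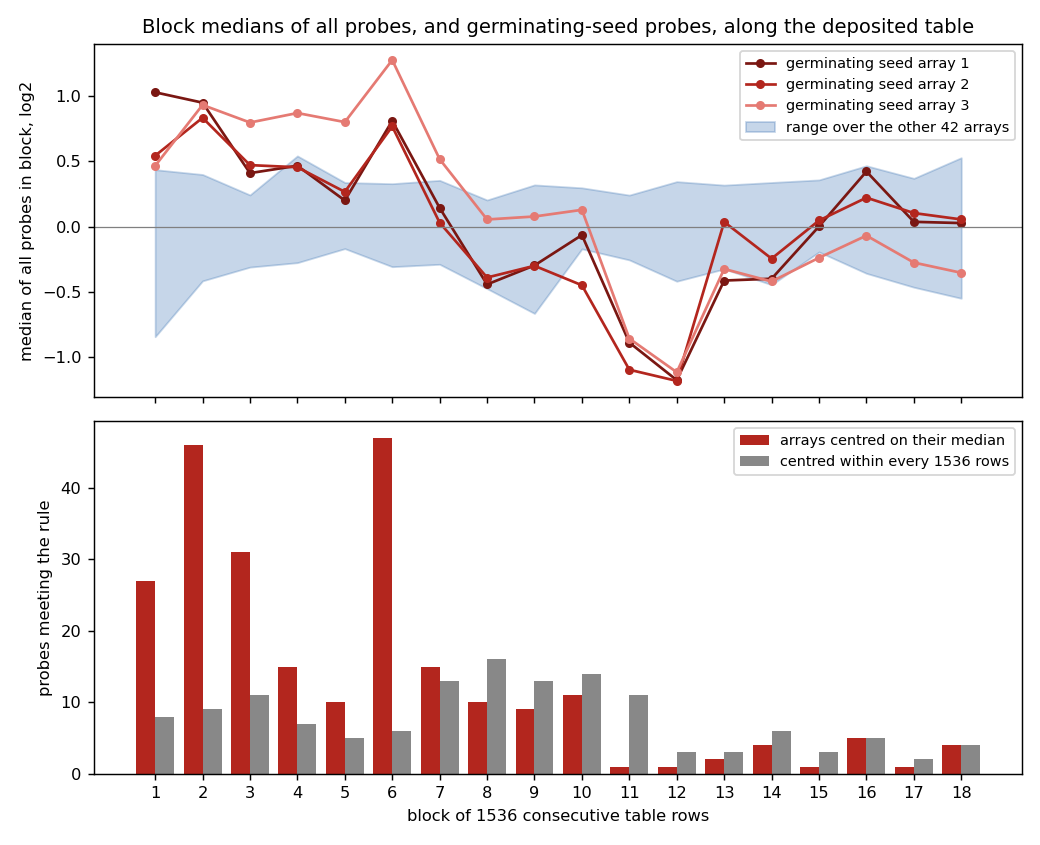
The upper panel plots the median log2 value of all probes in each block of 1536 table rows for the 3 germinating seed arrays (red lines) and the range over the other 42 arrays against cultured cells (band). The lower panel counts the probes meeting the rule per block with arrays centred on their median (red) and within every 1536 rows (grey); the red counts are highest in blocks 2 and 6, where the germinating seed lines are also high.

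The values that chose the 240 probes are a description and no test. Their germinating seed means ran from -0.32 to 5.87 with a median of 3.32, and 239 lay above 0. Scaling all arrays to a common median absolute value lowered that median to 2.22. Far fewer probes then met the rule, as given in the last section. The highest other mean had a median of 0.87 and ran from -2.47 to 3.42, and for 19 probes every other organ mean was below 0. The difference between the germinating seed mean and the highest other mean, called the margin below, had a median of 2.33 and a maximum of 4.89. It was under 2.5 for 150 probes and at least 3 for 28. The nearest probes outside the rule had margins of 1.9922, 1.9922 and 1.9993, and the nearest inside had 2.0017, 2.0048 and 2.0049, so the set has no natural edge at 2.

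The probe with the largest margin, 3205357, has no gene in the annotation table. It read 7.40 and 4.19 on the 2 germinating seed arrays that measured it, and its highest other mean was 0.90 in dark hypocotyl. All 5 probes with a margin of at least 4 had only 2 germinating seed values. Among the 186 probes with 3 values the largest margin, 3.87, belonged to probe 3215731, also without a gene. Its germinating seed arrays read 1.94, 1.90 and 2.33, close together, while no other organ mean exceeded -1.81.

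The 3 germinating seed arrays placed the probes at similar levels, with medians of 3.12 over 225 probes, 2.96 over 218 and 3.41 over 223. Single probes agreed less well. The SD over the 3 arrays had a median of 0.79 for germinating-seed probes and 0.42 for all eligible probes, and it exceeded 1 for 36.0% against 16.1%. A further 54 probes, 22.5%, had only 2 germinating seed values, against 14.1% of eligible probes. The lowest germinating seed array exceeded every single array of every other group for 178 of the 240. That was true of 636 of 23075 eligible probes, 2.76%, and nothing is read from the comparison, because the rule used these values. Against cultured cells, 238 of the 240 were higher (limma, adjusted p under 0.05 and at least 2-fold), a contrast the rule also used, where 29.3% of all probes tested were higher.

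To read the choice on an array it had not used, the rule was applied with 2 germinating seed arrays and the remaining array was set against the highest other mean. With array 1 held out, 228 probes were chosen, of which 213 had a value on it. There 186 of them, 87.3%, lay above every other organ mean and 80, 37.6%, reached the margin of 2. With array 2 held out, 206 of 218 lay above every other mean, 94.5%, and 81 reached the margin, 37.2%. With array 3 held out the counts were 179 of 201, 89.1%, and 85, 42.3%. The median margin on the held-out array was 1.66, 1.68 and 1.81, against 2.41, 2.38 and 2.38 on the arrays that chose. Across all eligible probes with 3 values, 1.44% to 1.88% reached a margin of 2 on these arrays. Between 12.0% and 13.3% of them lay above every other mean. More than 1 in 2 of the chosen probes thus fell short of 4-fold on the array held out. The other organs' means were the same values in the choice and in the reading, and the 3 arrays share the row drift described above. With each array centred within every 384 rows, 38 of 123, 36 of 122 and 44 of 126 probes reached the margin on arrays 1, 2 and 3, that is 30.9%, 29.5% and 34.9%, against 1.12% to 1.24% of eligible probes. Those above every other mean were 108, 110 and 106, against about 11% of eligible probes.

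**Figure D2:**
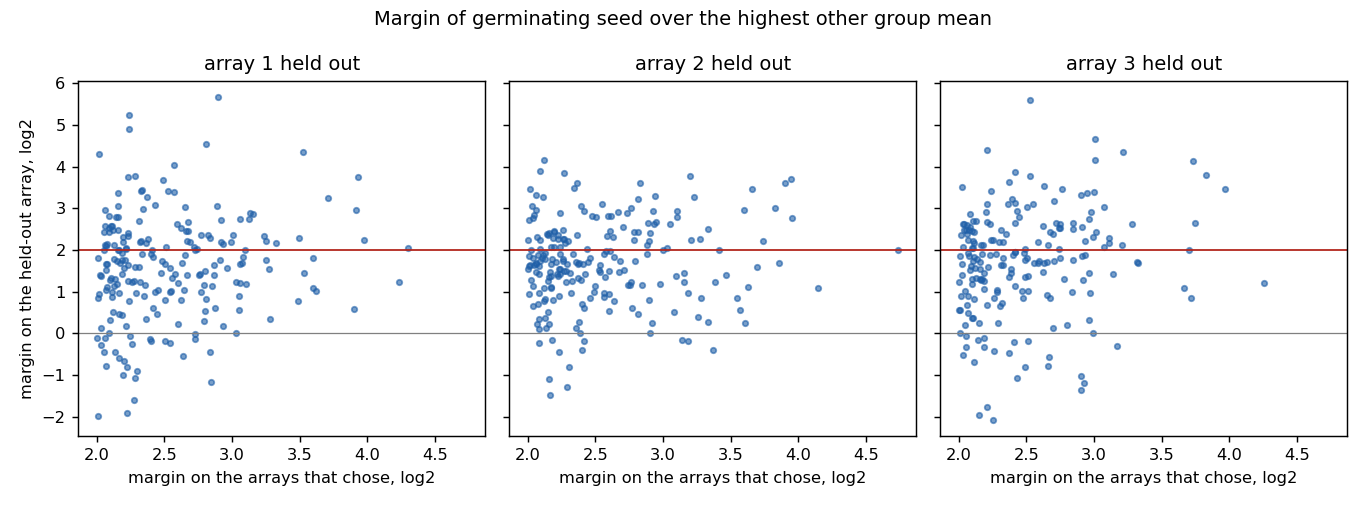
Each point is 1 probe chosen on 2 germinating seed arrays, with its margin over the highest other organ mean on those arrays (horizontal axis, log2) and on the array held out (vertical axis, log2); the red line marks the margin of 2. Most points lie above 0, and 37.6%, 37.2% and 42.3% lie at or above the red line for arrays 1, 2 and 3.

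Outside germinating seed the ratios of the 240 probes were mostly near or below the median ratio of the array. Their median was highest in dark hypocotyl, at 0.29, followed by dark root at 0.11, petal at -0.12, 1DPP pistil at -0.23, 8DPP silique at -0.24 and stamen at -0.25. It was lowest in rosette leaf at -0.63, cauline leaf at -0.59 and dark cotyledon at -0.49. These medians lie close together beside the spread over probes: in dark hypocotyl the middle 50% of the probes ran from -0.31 to 0.84, and in rosette leaf from -1.22 to -0.19. Arrays of a group also differed, as in petal, where the medians of the 3 arrays were -0.47, -0.46 and 0.22.

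Dark hypocotyl, the etiolated stem of the seedling, was the organ with the next highest mean for 67 of the 240 probes, 27.9%, although it was the highest other organ for only 6.7% of eligible probes. Petal followed with 28 probes, 11.7% against 4.9%, then 8DPP silique with 27, 11.2% against 7.7%, and dark root with 19, 7.9% against 3.7%. Stem and rosette leaf were the next highest for 4 and 6 probes, 1.7% and 2.5%, against 12.7% and 11.3% of eligible probes. The block medians of the dark hypocotyl arrays spanned 0.95 and 1.01 log2 units along the table rows, near the top of the range over the 48 other arrays, and the part of this in the ranking was not tested. The mean of light hypocotyl was missing for 50 of the 240 probes.

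**Figure D3:**
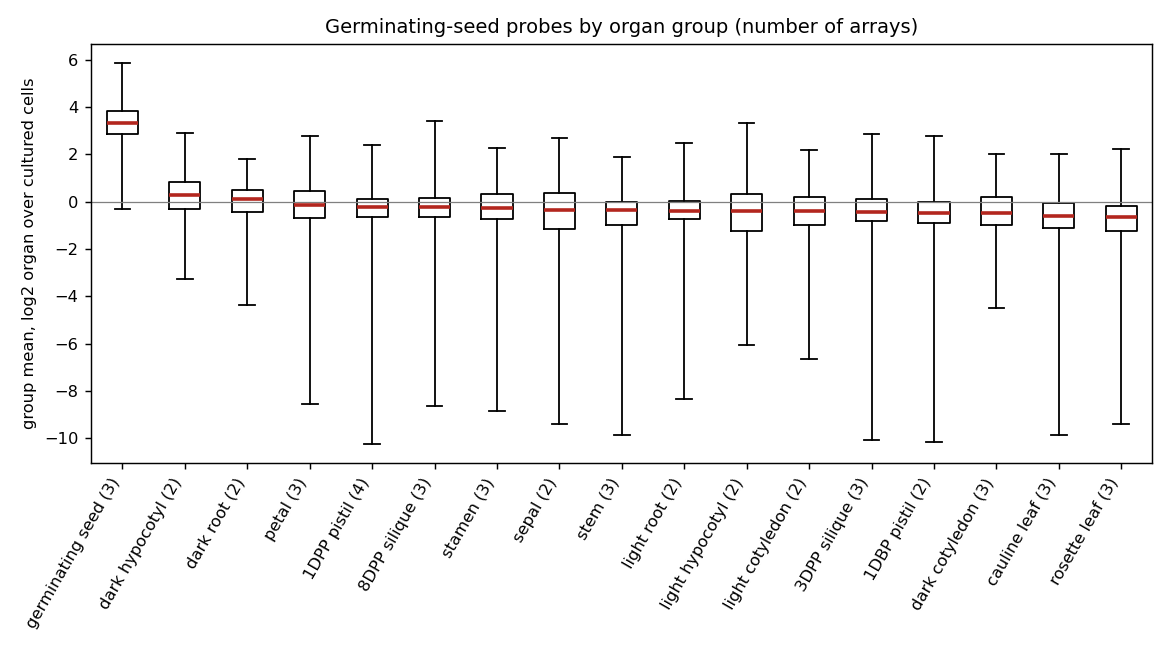
Boxes show the group means of the 240 germinating-seed probes in each organ group (log2 organ over cultured cells, number of arrays in parentheses): red line the median, box the middle 50%, whiskers the lowest and highest probe. The germinating seed box, with a median of 3.32, lies above all others, whose medians run from -0.63 in rosette leaf to 0.29 in dark hypocotyl.

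Among the 7 genes, 2 act in gene expression in the nucleus. NRPB7 (AT5G59180) encodes a small subunit of RNA polymerase II that, in yeast, forms a stalk with a partner subunit and binds the emerging RNA. It read 3.21, 3.40 and 2.15 on the germinating seed arrays, a mean of 2.92 ± 0.67 (SD, n = 3). The next organs were dark hypocotyl, at 0.39 and 0.98, and cauline leaf, at 0.18, 0.08 and 1.18. No array of another organ reached the lowest germinating seed value, and the margin was 2.24. ORA47 (AT1G74930) encodes an AP2/ERF transcription factor that activates jasmonate synthesis genes. It was measured on 2 germinating seed arrays, at 4.70 and 2.29, a mean of 3.50 ± 1.71 (SD, n = 2). The next organ was petal, at 1.79, 0.61 and 0.21, and the groups did not overlap. Its margin of 2.63 was 1.42 without germinating seed array 1 and 3.83 without array 3.

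A further pair of genes acts in membrane traffic. YKT61 (AT5G58060) encodes a longin-type SNARE, a protein of membrane fusion. It read 4.29, 5.06 and 3.83 in germinating seed, a mean of 4.40 ± 0.62 (SD, n = 3). The next organs were sepal, at 1.93 and 2.66, and dark hypocotyl, at 1.89 and 1.88. These lay below the lowest germinating seed array, and the margin was 2.10, or 0.48 with centring within 192 table rows. Cauline leaf was lowest, at -1.67, -1.86 and -1.21. AT3G09800 encodes a zeta subunit of coatomer, the coat of vesicles that return from the Golgi to the endoplasmic reticulum. It read 2.87, 7.17 and 3.97 in germinating seed, a mean of 4.67 ± 2.24 (SD, n = 3). Petal array 1, at 4.66, lay above 2 of these values, while the other petal arrays read 0.99 and 0.59. This gene therefore overlapped between organs, and its margin of 2.59 was 1.33 without germinating seed array 2 and 0.0062 against the highest single array.

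The other 3 genes belong to metabolism and plastids. AT2G34590 encodes a beta subunit of the E1 component of plastid pyruvate dehydrogenase, which makes acetyl-CoA for fatty acid synthesis. It read 3.62, 3.34 and 3.91 in germinating seed, a mean of 3.62 ± 0.29 (SD, n = 3), the tightest of the 7. The next organs were dark hypocotyl, at 0.78 and 2.08, and dark cotyledon, at 0.80, 0.45 and 1.25, both below the lowest germinating seed value. Light root was lowest, at -0.41 and -2.15.

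AT4G13360 encodes an enzyme of the crotonase family similar to 3-hydroxyisobutyryl-CoA hydrolase, which acts in valine breakdown. It read 3.61, 4.18 and 2.29 in germinating seed, a mean of 3.36 ± 0.97 (SD, n = 3), and its margin of 2.78 was the largest of the 7. Stem followed, at 0.42, 0.95 and 0.38, and the next mean was 0.15 in cauline leaf. This margin stayed at or above 2.37 when any single array was left out. AT4G30690 encodes an initiation factor of plastid translation. It read 2.83, 2.12 and 1.54, a mean of 2.16 ± 0.64 (SD, n = 3), the lowest of the 7. The 1DBP pistil followed, with 0.80 on array 2 and -0.62 on array 3, and without the latter the margin of 2.07 was 1.36. Apart from 1DBP pistil array 2 every value of another organ lay at or below 0.27.

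**Figure D4:**
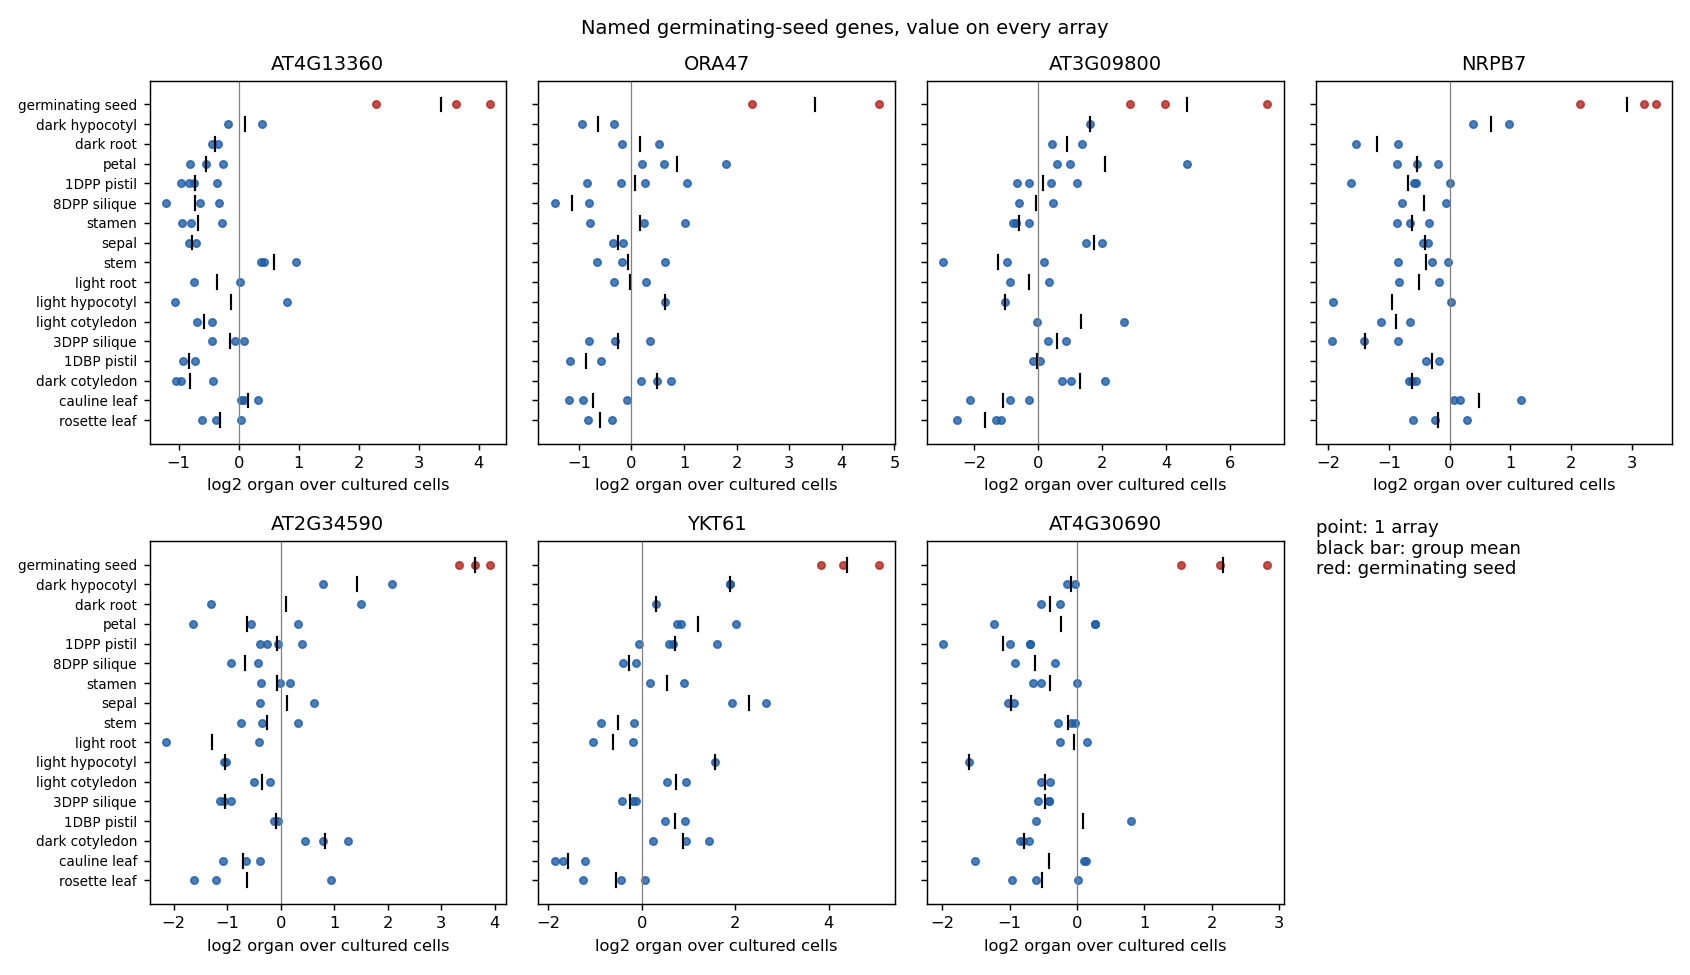
Each panel shows 1 gene, with the value on every array against cultured cells (points, log2) and the group mean (black bar), germinating seed in red. The germinating seed points lie to the right of all others except for AT3G09800, where petal array 1 at 4.66 lies above the germinating seed values of 2.87 and 3.97.

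All 7 probes lie in the first 10 blocks of table rows, and none was among the 72 probes that met the rule under all 3 row centrings. AT4G30690 kept a margin of 2.34, 2.08 and 1.99 with centring within 1536, 384 and 192 rows, and AT4G13360 one of 2.04, 1.83 and 1.91. ORA47 had 1.69, 1.63 and 2.09, AT2G34590 had 1.67, 1.96 and 1.58, AT3G09800 had 1.74, 1.90 and 1.56, and NRPB7 had 1.39, 1.70 and 1.33. YKT61 had 1.09, 1.46 and 0.48, the lowest of the 7 in each of these settings. All 7 genes had their highest mean in germinating seed in each of these settings. Nothing is read from this, because the genes were chosen on the same arrays.

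Few of the 240 probes could be tied to a gene. The annotation table lists 16 of them, 6.67%, and 2315 of the 23075 eligible probes. Of the 16, 7 name a single gene through a cDNA or EST, 4 a single gene through a genomic clone and 5 several genes. Clones and probes with several genes made up 56.2% of the annotated germinating-seed probes, 28.9% of annotated eligible probes and 31.2% of annotated stamen probes. The 29 genes so listed were 20 protein-coding genes and 9 pseudogenes, and none of the pseudogenes was tied to a cDNA probe. A clone covers more than the gene named for it, so which transcript such a probe measured is uncertain.

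The 4 clone probes with a single gene are listed under AT3G29640 and AT3G30150, both annotated as pseudogenes, AT3G30841 and AT3G14220. The array holds 5 probes listed under AT3G29640, 6 under AT3G30841, 6 under AT3G30150 and 2 under AT3G14220. For each of these genes only the probe described here met the rule. The AT3G30841 probe read 2.42, 2.35 and 2.28 in germinating seed and at most 0.26 on any other array. The AT3G14220 probe read 3.98, 3.27 and 4.14, above its next groups, dark hypocotyl at 1.83 and 1.74 and dark root at 1.78 and 1.31. The AT3G30150 probe read 1.90, 2.97 and 4.38, all above its highest other array at 1.1. The AT3G29640 probe read 3.33, 4.63 and 3.64, but 8DPP silique array 2 read 4.79, so the groups overlapped. With centring within 1536, 384 and 192 rows, the margin of the AT3G29640 probe, 2.73, was 2.0, 1.39 and 1.47, and that of AT3G30841, 2.27, was 1.65, 1.89 and 1.35. For AT3G30150 it fell from 2.18 to 1.23, 1.35 and 1.22, and for AT3G14220 it went from 2.01 to 2.20, 1.75 and 2.15.

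None of the few measured genes on the seed lists was among the 240. Since 1.04% of all eligible probes were chosen, nothing is read from this. Of 13 seed storage genes listed, 1 was measured, the oleosin gene OLEO3, a coat protein of oil bodies. It read 2.62, 2.54 and 2.58 and was higher in germinating seed than in cultured cells (log2 2.58 ± 0.58 SE, adjusted p = 0.00031, limma), but dark cotyledon had a mean of 4.62. Of 14 late embryogenesis genes 5 were measured, and 3 of these were higher than in cultured cells, LEA at 1.85, LEA4-5 at 1.80 and AtLEA4-1 at 2.32. Each was higher still in another organ, up to 3.92 for AtLEA4-1 in sepal. Among all probes tested, 29.3% were higher in germinating seed than in cultured cells and 29.4% lower. AIM1, an enzyme of fatty acid beta-oxidation and the only measured gene of 19 for reserve lipid use, was lower than in cultured cells at -1.85 ± 0.20 (SE, adjusted p = 6.5e-10). Of 16 wall-loosening genes 2 were measured, and the expansin-like EXLA2 was higher, at 1.31 ± 0.39 (SE, adjusted p = 0.0041), while EXPB3 had 1 value. None of 21 gibberellin and abscisic acid genes was measured.

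Among the markers of other tissues, 7 of 14 probes tested were higher in germinating seed than in cultured cells and 1 was lower. Of all probes tested, 29.3% were higher and 29.4% lower. Each of the marker probes had its highest mean in another organ. In the photosynthesis list, 3 of 5 probes tested were higher than in cultured cells, LHB1B2 at 4.27, PSAN at 2.18 and PSAE-1 at 3.21, and none was lower. For these genes the highest organ means ran from 8.41 to 10.10. Among root peroxidases 3 of 5 probes were higher and 1 lower, with AT4G30170 highest at 3.26, against 6.81 in light root. Of 3 pollen genes, ACT12 was higher at 1.61, against 6.42 in stamen, and the seed coat gene BAN, at -0.55, did not pass the test. Their part in the levels of the 240 probes was not tested.

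The 6 direct arrays, which compare light with dark and hold no seed RNA, took no part in the choice. The direct arrays show how the germinating-seed probes behaved in seedling organs. The main tests on them, however, used a spread between arrays fitted over all groups, germinating seed included. The SD over the germinating seed arrays had a median of 0.79 for germinating-seed probes and 0.42 for eligible probes. A wider spread raises the standard error, so fewer of these probes may pass. The part of this in the shares called was not tested. On the cotyledon arrays 235 of the 240 were tested, and 2 were higher and 10 lower in light (limma, adjusted p under 0.05 and at least 2-fold), that is 0.851% and 4.26%. Among all 25907 probes tested, 6.55% were higher and 4.82% lower. The germinating-seed probes had a median change of -0.20, and all probes one of -0.02. The medians of the 2 arrays were -0.04 and -0.28, and a fit without either one rests on a single array.

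On the root arrays 218 were tested, and 1 was higher and 11 lower in light, 0.459% and 5.05%, against 4.81% higher and 4.31% lower among all 24974 probes. The median was -0.55 for the germinating-seed probes and -0.03 for all probes, and 80.3% against 51.8% lay below 0. This shift lay on 1 array. On root array 1 the median of the germinating-seed probes was 0.04, with 48.1% below 0, and on root array 2 it was -1.09, with 83.6% below 0. Without array 1 the count of probes passing was 34, with 33 of 220 lower against 5.26% of all probes, and without array 2 it was 1, with 0.422% against 0.866%. The share lower in light was 9.17% against 5.77% with arrays centred on the named probes, and 7.34% against 4.41% with centring within 1536 rows. It was 6.88% against 5.65% in a fit on the 2 root arrays alone. With the replicate number as a block it was 3.21% against 3.03%. Through the cultured cell reference, light root minus dark root had a median of -0.43 over the germinating-seed probes and 0.22 over eligible probes. These values are on arrays the rule used.

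The direct hypocotyl arrays carried light in channel 2, unlike the other direct arrays. Across probes their mean correlated at -0.08 with light minus dark through the cultured cells, against 0.54 for cotyledon and 0.49 for root, so their sign is given as deposited with no direction. Of the germinating-seed probes 208 were tested, 3 were positive and 6 negative, 1.44% and 2.88%, against 9.64% and 7.11% of all 24882 probes. The medians of the 2 arrays were -0.13 and 0.12, and a fit without either one rests on a single array.

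**Figure D5:**
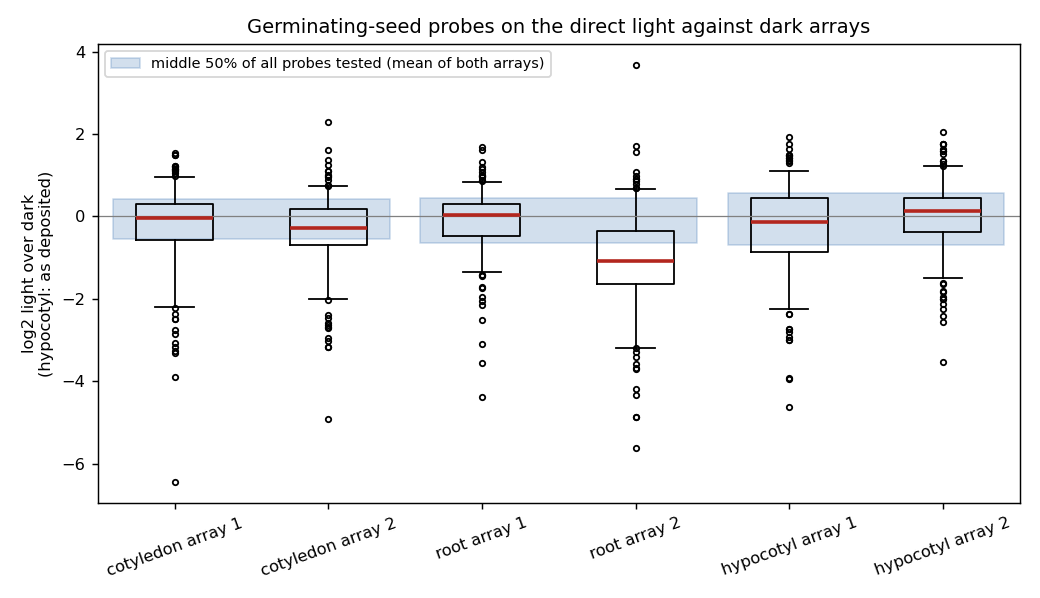
Boxes show the log2 ratios of the germinating-seed probes on each direct light over dark array (hypocotyl as deposited): red line the median, box the middle 50%, whiskers the 5th and 95th percentiles, circles the probes beyond. The band is the middle 50% of all probes tested; root array 2, with a median of -1.09, stands apart from root array 1, with 0.04.

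Of the 7 genes, 6 were measured on both arrays of each direct comparison. AT4G13360 was higher in light cotyledons, with 1.54 and 0.65 on the 2 arrays and a mean of 1.09 ± 0.35 (SE, adjusted p = 0.033, limma). This call was lost with the replicate number as a block (adjusted p = 0.098), without centring (0.10) and in 4 other settings, among them leaving out either array (0.64 without array 1 and 0.060 without array 2). In roots it read 0.11 and 0.08, and the difference between the organs did not pass its own test (1.00 ± 0.50 SE, adjusted p = 0.29). YKT61 read -1.84 and -2.41 on the hypocotyl arrays as deposited, a mean of -2.13 ± 0.37 (SE, adjusted p = 7.0e-05, or 0.075 in a fit on these 2 arrays alone). In light roots AT2G34590 had -1.21 and -1.56 and YKT61 -0.66 and -1.37, which missed the threshold at adjusted p = 0.058 and 0.067. The other 3 genes measured, NRPB7, AT3G09800 and AT4G30690, passed in none of the comparisons. ORA47 had 1 value in each and was not tested. Among the clone probes the AT3G30841 probe passed in cotyledons, at -1.52 ± 0.46 (SE, adjusted p = 0.021), on array values of 0.14 and -3.17 that lie far apart.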

How the data were processed

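The authors deposited a log2 ratio per probe and array, with a lowest ratio of 0.001, which is -9.97 on the log2 scale. Turned back to linear ratios and counted in thousandths, all 255573 deposited log2 values below -1 lay within 0.01 of a whole number. Imaging, background correction and normalization are not given in the sources used here. Array medians ran from -0.60 to 1.05, and each array was centred on its median. Spots of the 3 control accessions, 17 for each, were averaged, so 27648 spots became 27600 probes. Genes came from the probes' annotation table, with symbols and biotypes from RefSeq's TAIR10.1 annotation. Accessions starting with AC, AL, AP or AB were treated as genomic clones. All others were taken as cDNAs or ESTs by that form alone. The genes named are all germinating-seed probes with a single gene and a cDNA or EST accession.

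One mean per group was fitted over all 51 arrays with limma 3.58.1 in R 4.3.3, a probe needing 2 values in the group. Two-sided p-values were adjusted by the Benjamini-Hochberg method over all probes tested, and a call needed a change of at least 2-fold with an adjusted p under 0.05. The fit was tested on simulated data before use. Tables were made in Python 3.11.15. Members, gene lists and alternatives were chosen with earlier results of these data known, and the centring within table rows after the row drift was seen. Probe and promoter sequences were not analysed here. Precision is limited by the number of arrays. The array with the fewest values, 7410, was 8DPP silique array 3.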

Additional observations from a re-analysis of the deposited data

How the results depend on the processing

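The number of germinating-seed probes, 240, depended on scale and threshold. It was 432 without centring and 22 after scaling to a common median absolute value, 955 at a margin of 1 log2, 28 at a margin of 3 and 68 against the highest single array. With centring within 1536, 384 and 192 table rows, chosen after seeing the data, it was 139, 148 and 132. It stayed within 1.5 times under quantile normalization (270), centring on named probes (271), the replicate block (222), medians per group (222) and the 4 other planned settings. Without one germinating seed array it ran from 218 to 240, of which 153 to 179 were among the 240, and without one other array from 229 to 258. Between germinating seed and other arrays, none of 41 same-numbered pairs correlated above 0.1, and 13 of 27 arrays correlated best with their own number. Pairs among the other arrays were not compared, so whether the replicate numbers mark shared material is not settled.

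On the direct arrays, calls among all probes for cotyledon, root and hypocotyl were 2946, 2278 and 4166. Scaling to a common median absolute value gave 9136, 8216 and 8863, with 51, 62 and 37 among the germinating-seed probes in place of 12, 12 and 9. Probes with a value on every array, 3176 in all and 18 of the 240, gave 485, 395 and 737, with 3, 2 and 3, and 2252 in place of 13685 for germinating seed against cultured cells. A fit on 2 direct arrays alone gave 0 in cotyledon and 0 in hypocotyl for all probes and for the germinating-seed probes, where 7010 and 8435 probes had an unadjusted p under 0.05, and 1805 with 16 in root. Germinating-seed probes called in root with centring on named probes were 20, all lower, 9.17% against 5.77% of all probes. In root with the replicate block they were 7, all lower, 3.21% against 3.03%. In hypocotyl without centring they were 22, all negative, 10.6% against 18.1%. With the replicate block all-probe calls were 13315 for germinating seed and 2530, 1756 and 3857 on the direct arrays. Without one array, calls among all probes ran from 1605 to 1764 in cotyledon, 475 to 2772 in root and 2091 to 3075 in hypocotyl, with 5 to 7, 1 to 34 and 3 to 13 among the germinating-seed probes, and from 11951 to 12087 for germinating seed. The share of calls that were positive was 49.9% for germinating seed and 57.6%, 52.8% and 57.6% on the direct arrays, against 73.6%, 43.5%, 34.4% and 16.7% without centring and 58.7%, 41.7%, 34.5% and 48.4% with centring on named probes. The cotyledon call of AT4G13360 was lost in 6 settings, among them the replicate block (adjusted p = 0.098) and no centring (0.10). The hypocotyl call of YKT61 was lost in 1 (2 direct arrays alone, adjusted p = 0.075), and in roots AT2G34590 passed in 3 and YKT61 in 6. No margin of a named gene and no called change turned direction, but the root median of the germinating-seed probes, -0.55, was 0.04 without root array 2. The cause of these changes was not tested.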
